A study of Mus musculus with 24 samples.

Results

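Snhg1, Snhg5, Taf1d, Clk1, Clk4, Luc7l, Hnrnpdl and Rbm39 are 8 mouse genes grouped here as snoRNA host genes and transcripts known to be cut down by nonsense-mediated decay. They are 8 of the 8251 genes on the array, and all probe sets that the array's annotation assigns to them were taken, which gave 14 of the 12422 probe sets that were not array controls. The 8 genes were selected on values of these same arrays, their changes under tunicamycin and between genotypes, so their levels and changes are given as a description with standard errors and intervals, without a test. Of the 14 probe sets, 12 passed a filter on low signal (a mean log2 value above that of a signal of 28.7). The exceptions were Taf1d 94476_at, with signals between 10.4 and 61.9, and Hnrnpdl 161372_f_at, with signals between 0.4 and 7.2.

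The RNA came from primary MEFs, which are fibroblasts cultured from mouse embryos without immortalisation. Cells were wild type or CHOP-/-, the latter lacking the gene Ddit3, which encodes the stress transcription factor CHOP. Both genotypes had 4 untreated arrays, 4 after a 4 h exposure to tunicamycin (2 microgram/ml) and 4 after an 8 h exposure, 24 in all. This antibiotic prevents N-linked glycosylation in the endoplasmic reticulum (ER), where unfolded glycoproteins then build up. The arrays of each group carry the letters A to D, and only the untreated wild type arrays A to C are labelled as passage 3. No label says whether arrays of a group came from separate embryos or cultures, so the errors measure the spread between these arrays, which may be technical. Each array gave 1 intensity per probe set, and the number of arrays limits the precision.

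Small nucleolar RNAs (snoRNAs) guide chemical modification of ribosomal RNA, and most are cut out of the introns of a host transcript. The spliced exons of noncoding hosts such as Snhg1 and Snhg5 are exported, meet ribosomes, and are degraded by nonsense-mediated decay, which removes RNAs whose reading frame ends well before the last exon junction. Many genes for splicing factors and for the CLK kinases make decay-sensitive forms through a skipped exon or a poison exon. Decay depends on ongoing translation and on phosphorylation of UPF1, and stress that activates the kinase PERK is known to slow it by phosphorylating eIF2-alpha. The arrays measured RNA levels and no decay rate, and no probe set here was assigned to a spliced form, so the label could be checked only for the snoRNAs. In the RefSeq annotation of GRCm38.p6, 8 snoRNA genes lay within Snhg1 (among them Snord22), 6 within Taf1d and 2 within Snhg5. Clk1, Clk4, Luc7l, Hnrnpdl and Rbm39 had 0.

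RefSeq promoters (GRCm38.p6, 250 bases before to 50 after the start) were at hand for 6 of the 8 genes, all but Clk1 and Luc7l. The windows of Snhg1, Snhg5 and Clk4 are printed because they hold core or stress-related letters close to the start, from 80 bases before to 30 after it. Capitals mark a match to TATAAA on either strand in Snhg1, to CCAAT and TATAAA in Snhg5, and to the cyclic AMP response element TGACGTCA in Clk4.
Snhg1, chr19:8723407-8723516, plus strand: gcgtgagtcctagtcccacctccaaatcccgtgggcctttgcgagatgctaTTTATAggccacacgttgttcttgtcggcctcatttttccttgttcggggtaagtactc
Snhg5, chr9:88522868-88522977, minus strand: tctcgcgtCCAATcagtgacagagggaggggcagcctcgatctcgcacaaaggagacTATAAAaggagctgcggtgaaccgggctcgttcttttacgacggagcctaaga
Clk4, chr11:51263034-51263143, plus strand: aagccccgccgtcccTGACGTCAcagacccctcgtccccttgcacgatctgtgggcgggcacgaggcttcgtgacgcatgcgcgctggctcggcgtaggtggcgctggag
The TATAAA match of Snhg5 began 23 bases before the start and its CCAAT match 72 bases before it. In Snhg1 the TATAAA letters lay on the opposite strand, with the first base 29 before the start, and in Clk4 TGACGTCA began 65 bases before it. Over all 32851 promoters of 300 bases, read on both strands, TATAAA was found in 13.62%, CCAAT in 37.41% and TGACGTCA in 1.79%. The shorter TGACG, which overlaps TGACGTCA, occurred in 20.81%. Clk4 held a further, separate TGACG at position -9 from the start, left in lower case above. The Rbm39 promoter, which is not printed, held CCAAT on the opposite strand at positions -132 and -83. Of letters tied to ER stress, TGACGTGG (0.68% of promoters) and the ATF4 letters TGATGNAA (3.97%) were in none of the 6 windows. The longer ER stress element was not searched for. A match is a run of letters and was not tested as a binding site, and the absence of a match says only that these letters are not in the window.

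The genotype labels were checked on Ddit3 first. Its signal was 299.65 ± 97.4 (SD, n = 4) in untreated wild type arrays, 3652 ± 722 at 4 h and 4383 ± 524 at 8 h, against 14.7 ± 12.02, 31.6 ± 11.03 and 20.5 ± 14.4 in CHOP-/- arrays, and the highest CHOP-/- array, at 40.4, was below the lowest wild type one, at 215.5. Median signals of the 24 arrays ran from 48.35 to 73, ratios of 3' to 5' control probe sets from 0.752 to 0.852 for Gapdh and from 0.948 to 1.24 for actin, and the median correlation of an array with the others of its group from 0.9421 to 0.9734. Of 11 fibroblast markers, 10 were above the filter, with summed signals between 20178.8 and 34732.1 and Col1a1 the brightest. Of 7 leukocyte markers on the array 3 were above it, with sums of 171 to 2261.2 in wild type and 106 to 591.7 in CHOP-/- arrays; 1 of 6 epithelial markers and 0 of 5 endothelial markers were. In bulk RNA, fewer cells of a type and less RNA per cell cannot be told apart, and the part of these markers in the results was not tested.

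Single arrays deviated from their group means for the 8 genes (brightest probe sets). The medians farthest from 0 on the log2 scale were -0.69 in CHOP-/- 4 h array C, -0.51 in untreated wild type array D, 0.495 in CHOP-/- 4 h array B, 0.475 in untreated wild type array C, 0.435 in CHOP-/- 4 h array A and -0.34 in wild type 4 h array C. All 8 genes were below the group mean in CHOP-/- 4 h array C and in untreated CHOP-/- array B (median -0.21). In untreated wild type array D, wild type 4 h array C and CHOP-/- 8 h arrays A and B, 7 of 8 were. Values without an array are given where they change a call or, for the larger deviations, move a change by over 1.5 times. The wild type 4 h changes all kept within 1.5 times of their value without array C, with 1.54 (SE 0.36) for Snhg1 and 2.40 (SE 0.47) for Snhg5 (Rbm39 94689_at had no value there).

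Snhg1, a noncoding host, and Snhg5, another, were more than 2-fold higher after tunicamycin, except Snhg1 in CHOP-/- cells at 4 h, and Snhg5 had the largest change of the 8 genes in all 4 comparisons with untreated cells. For Snhg1 the wild type signals of arrays A to D were 775.8, 625.4, 921 and 407 untreated, 1826.2, 2031.2, 1334.9 and 1743.7 at 4 h, and 1876.6, 1655.4, 2046.9 and 1688.5 at 8 h. The CHOP-/- signals were 550.6, 516.8, 600 and 714.2 untreated, 1576.9, 1836.1, 328.6 and 1020 at 4 h, and 2051, 1685.9, 2585.6 and 2398.2 at 8 h. Treated and untreated arrays did not overlap in wild type cells at either time or in CHOP-/- cells at 8 h. At 4 h in CHOP-/- cells, array C lay below all 4 untreated arrays while the other three lay above them. On the log2(signal + 5.7) scale used for all changes here, Snhg1 was higher by 1.40 (SE 0.33) at 4 h and 1.47 (SE 0.33) at 8 h in wild type cells, a 2.63-fold and 2.77-fold difference. CHOP-/- cells differed by 0.79 (SE 0.33) at 4 h and 1.88 (SE 0.33) at 8 h, the latter 3.69-fold. Without CHOP-/- 4 h array C the 4 h value was 1.29 (SE 0.23), without array B 0.50 (SE 0.33), and without untreated wild type array D the wild type 4 h value was 1.18 (SE 0.34).

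Group means of Snhg1, from highest to lowest, were 2180.18 ± 397 (CHOP-/- 8 h), 1817 ± 182 (wild type 8 h), 1734 ± 292 (wild type 4 h), 1190.4 ± 668 (CHOP-/- 4 h), 682 ± 219.7 (wild type untreated) and 595 ± 86.2 (CHOP-/- untreated). Each neighbouring pair in that order overlapped. Snhg5 signals in wild type arrays A to D were 131.5, 87.8, 198.6 and 73 untreated, 568.5, 637.6, 358.9 and 697 at 4 h, and 627, 414.6, 1056.2 and 613.2 at 8 h. CHOP-/- arrays gave 114.8, 48.6, 95.4 and 119.4 untreated, 369.6, 603.2, 75.6 and 268.3 at 4 h, and 607.1, 446.4, 1081.6 and 822.5 at 8 h. As for Snhg1, the only overlap between treated and untreated arrays of a genotype came from CHOP-/- 4 h array C. The difference from untreated cells was 2.22 (SE 0.44) at 4 h and 2.42 (SE 0.44) at 8 h in wild type cells, or 4.66-fold and 5.35-fold. In CHOP-/- cells it was 1.52 (SE 0.44) at 4 h, or 2.08 (SE 0.37) without array C, and 2.91 (SE 0.44, 95% interval 1.998 to 3.828) at 8 h. Untreated cells of both genotypes had the lowest Snhg5 means, 123 ± 56.4 and 94.5 ± 32.4, and the 8 h CHOP-/- mean was the highest, at 739 ± 275.

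Taf1d encodes a subunit of the selectivity factor that places RNA polymerase I on ribosomal DNA, and it is a coding gene that hosts snoRNAs. Its brightest probe set, 104639_i_at, read 701.8, 539.8, 923.1 and 172.9 in untreated wild type arrays A to D, 1209.9, 1378.8, 1017.7 and 1353.3 at 4 h, and 1710.7, 1428, 2050.9 and 1930.8 at 8 h. In CHOP-/- arrays it read 336.3, 408.2, 527.7 and 563.6 untreated, 998.1, 1374, 272.8 and 502.3 at 4 h, and 1971.7, 1536.8, 2737.6 and 2042.9 at 8 h. Wild type arrays stepped up without overlap from untreated to 4 h and from 4 h to 8 h, whereas CHOP-/- 4 h arrays C and D lay within or below the untreated range. The changes in wild type cells were 1.32 (SE 0.41) at 4 h and 1.82 (SE 0.41) at 8 h; without the low untreated array D they were 0.82 (SE 0.35) and 1.32 (SE 0.35). For CHOP-/- cells they were 0.60 (SE 0.41) and 2.18 (SE 0.41), the latter 4.54-fold. The 4 h value was 1.003 (SE 0.39) without array C and 0.25 (SE 0.41) without array B. The probe set 104640_f_at, a type that the array's naming marks as open to related sequences, had the same order of group means, with 1.59 (SE 0.34) in wild type and 1.84 (SE 0.34) in CHOP-/- cells at 8 h and 0.25 (SE 0.34) in CHOP-/- cells at 4 h, which was 0.59 (SE 0.32) without array C, 0.07 (SE 0.36) without array A and -0.04 (SE 0.33) without array B. The dim probe set 94476_at did not pass the filter, and all 4 untreated arrays of each genotype were under a signal of 28.7, so no change is given for it.

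**Figure D1:**
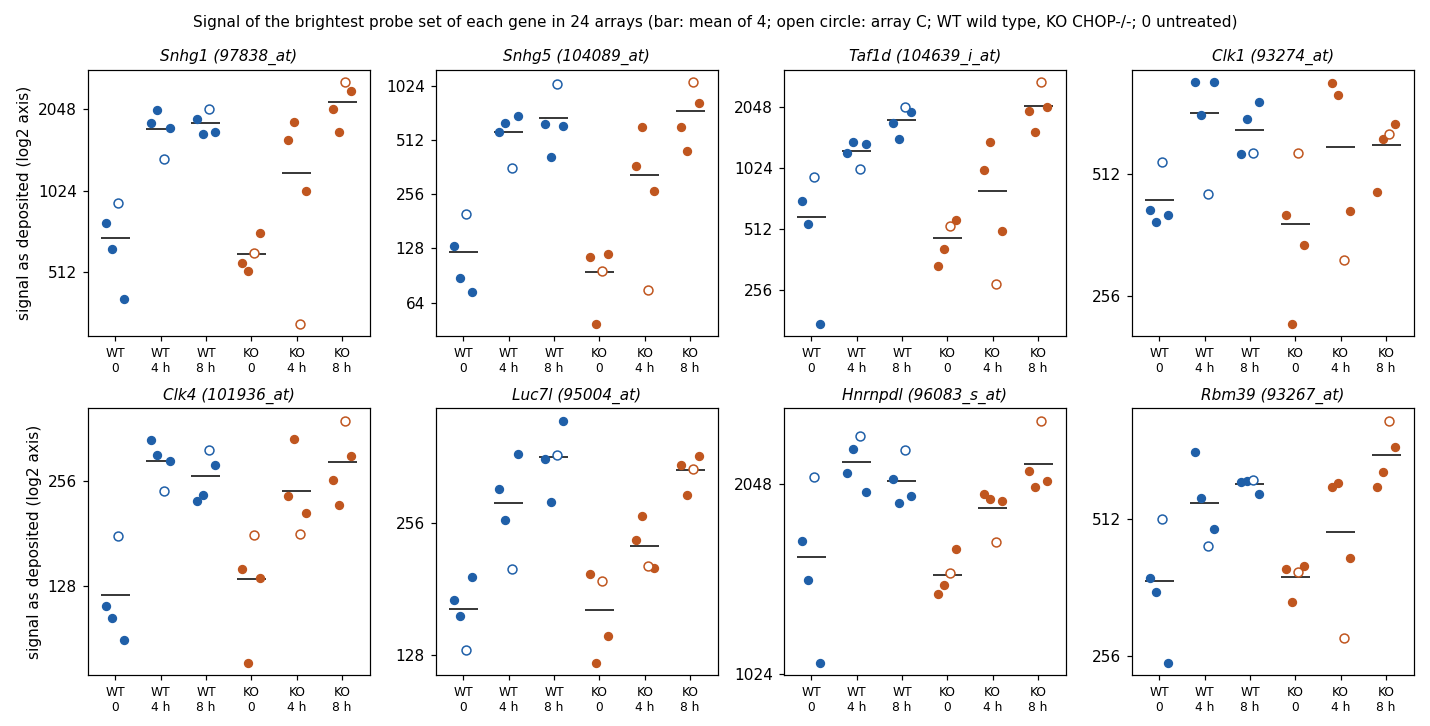
Signal of the brightest probe set of each of the 8 genes in every array (log axis, arbitrary units), by group: untreated, 4 h and 8 h of tunicamycin in wild type and CHOP-/- cells. Points are single arrays and bars the group means, n = 4; Snhg1, Snhg5 and Taf1d run far higher at 8 h than untreated in both genotypes, and CHOP-/- 4 h array C (open circle) lies at or below the untreated level for these 3 genes.

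Clk1 and Clk4 are dual-specificity kinases that phosphorylate SR splicing proteins in the nucleus. Clk4 signals lay above those of untreated cells at both times and in both genotypes, while Clk1 had the wider spread. The Clk4 probe set 101936_at read 112.2, 104.2, 178.2 and 90.2 in untreated wild type arrays, 335.1, 302.6, 239.9 and 290.8 at 4 h, and 224.4, 232.4, 312.3 and 283.4 at 8 h. CHOP-/- arrays A to D read 143.2, 77.4, 179.6 and 135.4 untreated, 231.6, 335.8, 180 and 206.9 at 4 h, and 256.5, 218.3, 379.6 and 301.7 at 8 h. No treated array fell within the untreated range of its genotype, although CHOP-/- 4 h array C cleared it by a margin of only 180 against 179.6. The log2 changes were 1.25 (SE 0.23) and 1.10 (SE 0.23) in wild type cells and 0.86 (SE 0.23) and 1.12 (SE 0.23) in CHOP-/- cells at 4 h and 8 h. Its second probe set, 101937_s_at, was dimmer, with group means of 49.0 to 121, and gave 0.92 (SE 0.18) and 0.95 (SE 0.18) in wild type and 1.14 (SE 0.18) and 1.25 (SE 0.18) in CHOP-/- cells. Ordered by mean, wild type 4 h was highest for 101936_at (292 ± 39.5) and wild type untreated lowest (121 ± 39.1), and the treated groups overlapped one another.

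The Clk1 probe set read 417.5, 390.2, 547.8 and 404 in untreated wild type arrays A to D, 862.5, 715.1, 457.2 and 864.4 at 4 h, and 574.5, 701, 575.5 and 771.2 at 8 h. In CHOP-/- arrays the signals were 405.6, 217.6, 575.7 and 340.9 untreated, 857.7, 801, 313.5 and 413.4 at 4 h, and 462.1, 622.9, 642.4 and 681.2 at 8 h. Only wild type cells at 8 h were clear of their untreated arrays, and the highest wild type mean was at 4 h (725 ± 192). Changes were 0.68 (SE 0.28) at 4 h and 0.55 (SE 0.28) at 8 h in wild type cells, and 0.61 (SE 0.28) and 0.70 (SE 0.28) in CHOP-/- cells. The CHOP-/- 4 h value was 0.39 (SE 0.28) without 4 h array A and likewise without untreated array B. At 8 h the wild type interval ran from -0.03 to 1.12 and the CHOP-/- interval from 0.13 to 1.28. With array letters as a block and only the wild type groups in the fit, the 8 h value was 0.55 with an SE of 0.14.

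Luc7l encodes a factor of the U1 snRNP that helps choose 5' splice sites. Wild type signals of arrays A to D were 171.5, 157.7, 131.9 and 193 untreated, 306.9, 261, 201.7 and 367.8 at 4 h, and 359.1, 287.1, 366.8 and 439.5 at 8 h. CHOP-/- signals were 196, 123, 189 and 142 untreated, 234.9, 266.1, 204.6 and 202.3 at 4 h, and 348.7, 297.8, 340.5 and 365.8 at 8 h. Every treated array lay above every untreated array of its genotype at both times. Luc7l was higher by 0.72 (SE 0.16) at 4 h and 1.09 (SE 0.16) at 8 h in wild type cells, and by 0.51 (SE 0.16) and 1.05 (SE 0.16) in CHOP-/- cells, or about 2.12-fold and 2.07-fold at 8 h. The groups ordered by time, with the 8 h means at 363 ± 62.3 and 338 ± 28.9, the 4 h means at 284 ± 70.3 and 227 ± 30.02, and the untreated means nearly equal at 163.52 ± 25.6 and 162.5 ± 35.6 (wild type first in each pair).

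Hnrnpdl, an hnRNP D-like RNA-binding protein whose own transcript carries a known poison cassette, was the brightest of the 8 genes and changed by less than the host genes. Its probe set 96083_s_at read 1660.5, 1440, 2104.3 and 1064.8 in untreated wild type arrays, 2132.2, 2330.9, 2442.6 and 1992.1 at 4 h, and 2087.7, 1909.5, 2317.6 and 1958.7 at 8 h. CHOP-/- arrays read 1372.2, 1414.4, 1478 and 1618.2 untreated, 1973.2, 1943.3, 1655 and 1923.8 at 4 h, and 2149.7, 2026.2, 2584.4 and 2068.5 at 8 h. The CHOP-/- times were clear of the untreated arrays, and in wild type cells untreated array C reached into both treated ranges. The changes were 0.57 (SE 0.14) and 0.48 (SE 0.14) in wild type cells at 4 h and 8 h, and 0.34 (SE 0.14) and 0.57 (SE 0.14) in CHOP-/- cells. Without untreated wild type array D the wild type values were 0.41 (SE 0.12) and 0.32 (SE 0.12). A second probe set, 96084_at, gave 0.43 (SE 0.19) and 0.33 (SE 0.19) in wild type cells and -0.11 (SE 0.19) and 0.65 (SE 0.19) in CHOP-/- cells, and the CHOP-/- 4 h value was 0.003 (SE 0.20) without array C and -0.19 (SE 0.21) without array B. Its wild type 8 h value was 0.525 (SE 0.18) without untreated array C and 0.20 (SE 0.20) without untreated array B. At 4 h the wild type mean of 96084_at was 269 ± 29.9 and the CHOP-/- mean 187 ± 36.8, without overlap. The third, 161372_f_at, never reached a signal of 28.7 and gave no usable level.

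Rbm39, a splicing factor related to U2AF65, had probe sets that did not agree. The brighter one, 93267_at, read 380.1, 353.9, 513 and 246.6 in untreated wild type arrays A to D, 719.6, 570.5, 445.7 and 487 at 4 h, and 619.6, 622, 623.9 and 582.4 at 8 h. CHOP-/- arrays read 398.1, 336.3, 391.6 and 403 untreated, 602.8, 615.2, 280.4 and 420.3 at 4 h, and 602.9, 649.1, 844.6 and 737.4 at 8 h. Both 8 h groups were clear of their untreated arrays, and both 4 h groups overlapped them. Log2 changes were 0.59 (SE 0.21) and 0.75 (SE 0.21) in wild type cells, and 0.28 (SE 0.21) and 0.87 (SE 0.21) in CHOP-/- cells; without untreated wild type array D the wild type 8 h change was 0.57 (SE 0.20). The CHOP-/- 4 h change was 0.49 (SE 0.19) without array C and 0.15 (SE 0.22) without array A or B. The dim one, 94689_at, ranged from 10.9 to 130.1 and went the other way at 8 h, by -0.86 (SE 0.54) in wild type and -1.26 (SE 0.54) in CHOP-/- cells. In CHOP-/- cells it was also lower at 4 h, by -1.32, with 3 of 4 arrays under a signal of 28.7. Its wild type 4 h value of 0.46 was 0.25 (SE 0.59) without untreated array D and 0.01 (SE 0.54) without untreated array B, and its 8 h value -1.31 (SE 0.54) without the latter. All 4 CHOP-/- 8 h arrays of that probe set were under a signal of 28.7, and its untreated wild type arrays ran from 11.1 to 124.5.

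**Figure D2:**
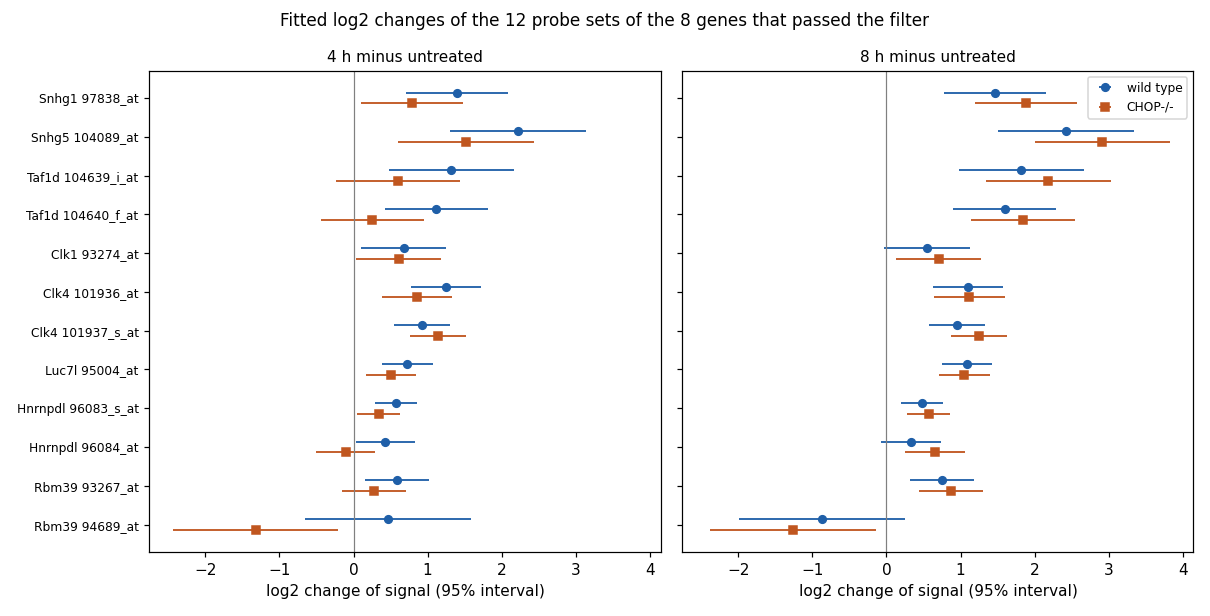
Log2 change against untreated cells of the same genotype (horizontal axis) of the 12 probe sets of the 8 genes that passed the filter, at 4 h and 8 h in wild type and CHOP-/- cells; points are fitted changes and lines 95% intervals from 24 arrays. Snhg5, Snhg1 and Taf1d lie farthest to the right at 8 h, and the dim Rbm39 probe set lies left of 0 at 8 h in both genotypes and at 4 h in CHOP-/- cells.

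Across the 12 probe sets, the same fit that was run on all 7413 tested probe sets called 6 higher in wild type cells at 4 h (limma, Benjamini-Hochberg adjusted p under 0.05), from 5 genes, where 1.65% of all tested probe sets were called higher and 0.31% lower. At 8 h in wild type cells it called 9, from 7 genes, beside 8.8% higher and 6.31% lower over all. In CHOP-/- cells it called 1 at 4 h (Clk4 101937_s_at; 0.985% higher and 0.391% lower over all) and 10 at 8 h, from 7 genes (6.73% higher and 5.96% lower over all). None was called lower in these 4 comparisons, and Clk1 was called in none of them. Since the genes were picked with these changes known, these counts describe them and nothing is read from them. The median change of the 12 was 0.82 and 1.02 in wild type cells at 4 h and 8 h and 0.55 and 1.08 in CHOP-/- cells, where the medians over all tested probe sets were -0.03, -0.01, 0.01 and -0.00. The comparisons at 4 h and 8 h share the untreated arrays of their genotype. Of all calls at 8 h, 58.2% were higher in wild type and 53% in CHOP-/- cells, and with each array centred on its median 68.8% and 66.1%.

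Leaving out CHOP-/- 4 h array C raised the count there from 1 to 3, the additions being Snhg1 and Snhg5. Leaving out untreated wild type array D ended the calls of Snhg1 and Hnrnpdl at 4 h and of Hnrnpdl and Rbm39 at 8 h. The wild type 4 h calls were open to other single arrays as well. That of Snhg1 was lost without untreated B or 4 h A, B or D, that of Luc7l without untreated A or C or 4 h A or D, and that of Hnrnpdl 96083_s_at without untreated B or 4 h A, B or C. At 8 h Hnrnpdl 96083_s_at was also lost in wild type cells without untreated B or 8 h C, and 96084_at in CHOP-/- cells without untreated A or B or 8 h C or D. Leaving out untreated CHOP-/- array C added Clk4 101936_at at 4 h (1.02) and Clk1 at 8 h (0.92). The wild type calls of Hnrnpdl 96083_s_at were also lost with arrays centred on their medians and with only the groups compared in the fit, where the 4 h call of Luc7l was lost and Clk1 was called at 8 h. Arrays of the same letter deviated together in the wild type time course and between genotypes at 8 h. With the letter as a block and only the groups compared in the fit, the calls over all probe sets were more. They went from 1120 to 1951 for wild type cells at 8 h and from 282 to 767 between genotypes at 8 h. The 8 genes had 10 of 11 and 0 of 12 probe sets called there. The probe sets tested were not those of the fit of all arrays. Rbm39 94689_at was tested in neither comparison. The dim Taf1d probe set, which did not pass the filter over all arrays, was tested between genotypes. These counts of the 8 genes are therefore not comparable with those of the fit of all arrays. With the block in the fit of all arrays, Rbm39 94689_at was called lower in CHOP-/- cells at 8 h and, at 4 h, lower than in wild type cells.

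The values of both genotypes are set side by side here as a description, since the genes were selected with them in view, and nothing is read from the counts. None of the 12 probe sets was called between genotypes in untreated cells, at 4 h or at 8 h, where 0.836%, 1.96% and 3.8% of all tested probe sets were called. The median difference of CHOP-/- from wild type cells was -0.11 untreated, -0.42 at 4 h and 0.10 at 8 h. All 12 were on the lower side in CHOP-/- cells at 4 h, from -0.09 for Clk4 101937_s_at to -1.63 for Rbm39 94689_at. Snhg5 was lower there by 1.06 on the log2 scale (329 ± 220 against 566 ± 147), with a difference of -1.06 (SE 0.44), or -0.49 (SE 0.37) without array C. Taf1d 104640_f_at differed by -1.08 (SE 0.34), by -0.74 (SE 0.32) without CHOP-/- 4 h array C and by -1.38 (SE 0.33) without array B, the latter the one setting of this kind in which it was called. At 8 h the differences ran from -0.24 to 0.36. Those of Snhg1 at 0.25 (SE 0.33), Snhg5 at 0.13 (SE 0.44) and Luc7l at -0.09 (SE 0.16) were small against their errors. The highest, 0.36 for Hnrnpdl 96084_at, was larger against its error and ran from 0.18 to 0.49 across the alternatives.

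No probe set of the 8 genes was among the calls of the response difference, which were 0% of all tested probe sets at 4 h (0 by limma, with 287 at an unadjusted p under 0.05) and 0.0135% at 8 h, a single probe set, that of Ddit3. At 8 h the response of CHOP-/- cells minus that of wild type cells was 0.42 for Snhg1 (95% interval -0.56 to 1.39), 0.49 for Snhg5 (-0.80 to 1.79), 0.36 for Taf1d 104639_i_at (-0.83 to 1.55) and 0.02 for Clk4 101936_at (-0.65 to 0.69). For Luc7l it was -0.04 (-0.52 to 0.45). At 4 h the values were -0.61 (-1.58 to 0.36) for Snhg1 and -0.70 (-1.995 to 0.593) for Snhg5, and without array C they were -0.10 (SE 0.31) and -0.14 (SE 0.51). These intervals leave room for a difference of 1 log2 unit or more in the host genes, so equal responses are not shown.

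The spread within groups was shared between genes. For the brightest probe set of each gene, deviations from the group mean had a median of 0.44 in CHOP-/- 4 h array A and 0.49 in array B, against -0.69 in array C and -0.16 in array D. In array C they ran from -1.69 to -0.06, and the median deviation over all tested probe sets there was 0.02. The ER stress gene Herpud1 had a signal of 4941.7 in that array, within the 4060.1 to 5367.2 of its group, and Trib3 had 635.1 within 560 to 664.9. Its Gapdh 3' to 5' ratio was 0.777 and its actin ratio 1.098, both inside the range of all arrays. Its median correlation with the other arrays of its group was 0.9498, the lowest in that group, where the highest was 0.9694. In the untreated wild type array D, with deviations from -1.5 to 0.21, Herpud1 was 564.8 within 474.1 to 670.2. The part of array handling or culture in these deviations was not tested.

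**Figure D3:**
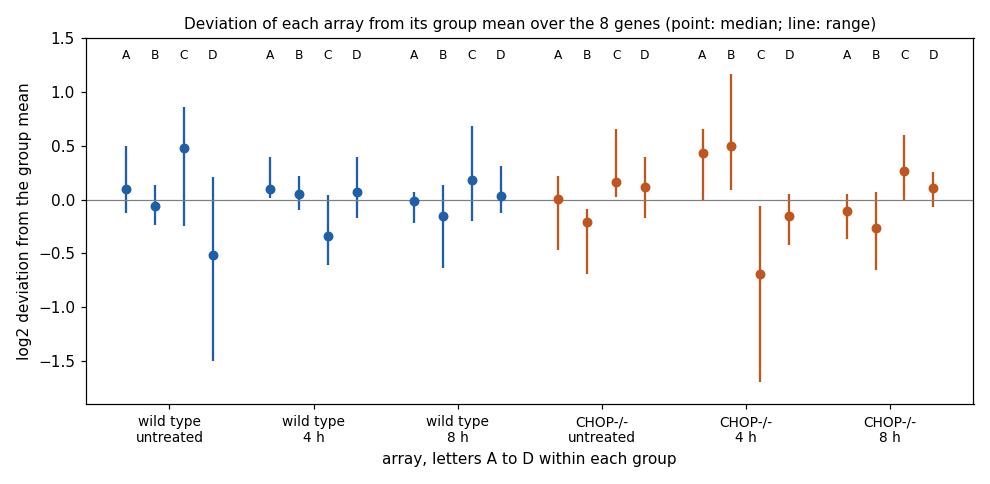
Deviation of each of the 24 arrays from its group mean (log2 units) over the brightest probe sets of the 8 genes, with arrays ordered by group and letter; points are the median and lines the range over the 8 genes. CHOP-/- 4 h array C is below its group mean for all 8 genes (median -0.69) and untreated wild type array D for 7 of 8 (median -0.51).

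Over the 24 arrays, the 28 pairs among the 8 genes had Pearson correlations from 0.609 to 0.973, with a median of 0.841, where pairs of all tested probe sets had a median of -0.00 and a 95th percentile of 0.495. These arrays share treatment and time, so the values describe levels in common and carry no test. Taken as deviations from group means, which removes treatment and genotype, the pairs ran from -0.32 to 0.914 with a median of 0.661 (95th percentile of all pairs, 0.525). Snhg1 and Snhg5 stayed highest at 0.914, and Snhg1 with Rbm39 at 0.888 and with Taf1d at 0.881 followed. Luc7l did not share these deviations to the same degree, with 0.113 to Snhg1, 0.057 to Taf1d, -0.02 to Rbm39 and -0.32 to Hnrnpdl, and 0.505 to Clk1 as its highest.

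The probe sets most like each gene over the 24 arrays were named by the highest Pearson correlation of log2 values. For Snhg1 they were Zzz3 (0.94), Zfp639 (0.937) and Rabggtb (0.913). Snhg5 had Rabggtb (0.936), which carries a snoRNA cluster in its introns, Zfp639 (0.917) and Eif1a (0.909), and Taf1d had Zfp639 (0.927), Ngrn (0.913) and Eif1a (0.902). For Clk1 the nearest were Taf1a (0.879), another subunit of the Taf1d complex, Rsrp1 (0.866) and Haus3 (0.827), and for Clk4 they were Zfp61 (0.917), Taf1a (0.883) and Zfp105 (0.883). Hnrnpdl was nearest to Zfp942 (0.863), Zfp51 (0.846) and Ccdc130 (0.844), and Rbm39 to Fndc3a (0.901), Zfp30 (0.898) and Eif2ak3 (0.894), which encodes PERK. Luc7l stood with ER stress genes: the disulfide isomerase Pdia4 (0.935), Creld2 (0.931) and the ER J-protein Dnajb9 (0.914).

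Other genes of the same pathways were taken as lists, with the 8 genes left out. Coding snoRNA hosts were called higher at 8 h in both genotypes: 9 of 23 tested probe sets (39.13%, 8 genes) in wild type and 8 of 23 (34.78%, 7 genes) in CHOP-/- cells, beside 8.8% and 6.73% over all, and none lower. Wdr43, a ribosome assembly factor, rose by 1.19 (SE 0.18, limma adjusted p = 5.33e-05) in wild type and 0.83 (adjusted p = 0.00248) in CHOP-/- cells. Rcc1, the exchange factor of the GTPase Ran, rose by 1.23 (adjusted p = 0.000924) and 1.10 (adjusted p = 0.0028), and the mitochondrial chaperone gene Hspa9 by 0.55 (adjusted p = 0.000401) and 0.46 (adjusted p = 0.00241). Rcc1 is included in these counts, although the RefSeq annotation placed no snoRNA gene within its span. The list's median change was 0.29 and 0.16, and no ribosomal protein host was among those called. At 4 h 3 probe sets, of Wdr43 and Rabggtb, were called in wild type cells and 0 in CHOP-/- cells; the 3 became 0 with arrays centred on their medians, without untreated wild type array B, or without 4 h array A or D, and 1 without untreated array D.

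Noncoding hosts other than Snhg1 and Snhg5 were few on the array, with 3 genes tested. Epb41l4aos rose at 8 h in CHOP-/- cells by 1.05 (SE 0.30, adjusted p = 0.021) and had 0.84 (adjusted p = 0.0608) in wild type cells; the CHOP-/- call was lost when the untreated array A, the untreated array B, or the 8 h array C or D was left out. Gas5, a growth-arrest transcript known for its decay during translation, had a value of 1.06 (SE 0.85, adjusted p = 0.476) in wild type and 1.16 (SE 0.85, adjusted p = 0.437) in CHOP-/- cells at 8 h on 98531_g_at. Its untreated wild type signals there spread from 206.6 to 1825.6, so a change of that size could not be told from the spread. On its other tested probe set, 98530_at, the 8 h values were 0.46 (SE 0.68, adjusted p = 0.739) in wild type and 0.405 (SE 0.68, adjusted p = 0.779) in CHOP-/- cells. Snhg6 gave 0.41 (adjusted p = 0.541) and 0.25 (adjusted p = 0.745). In a wider list, 12.5% of 152 tested probe sets of genes with an annotated snoRNA within their span were called higher in wild type cells at 8 h and 3.29% lower, and 9.87% and 3.29% in CHOP-/- cells. Over all tested probe sets these shares were 8.8% and 6.31% in wild type and 6.73% and 5.96% in CHOP-/- cells. That list was added after the first results were seen. Across the alternatives its wild type 8 h counts ran from 16 to 34 higher (19 here) and from 1 to 13 lower (5 here). In CHOP-/- cells at 8 h they ran from 10 to 18 higher (15 here) and from 3 to 7 lower (5 here).

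Among the proteins that package snoRNAs, 4 of 8 tested probe sets (50%) were called higher at 8 h in each genotype. Over all, the shares were 8.8% in wild type and 6.73% in CHOP-/- cells. The genes called were not all the same. Fbl was called only in wild type cells (0.427, adjusted p = 0.0381), with -0.035 (adjusted p = 0.915) in CHOP-/- cells. Nop58 was called only in CHOP-/- cells (0.998, adjusted p = 0.0118), with 0.746 (adjusted p = 0.055) in wild type cells. Nop56, a core protein of box C/D particles and itself a host, rose by 0.81 (adjusted p = 0.00164) in wild type and 0.86 (adjusted p = 0.00125) in CHOP-/- cells. Gar1, of box H/ACA particles, rose by 0.70 (adjusted p = 0.01) and 0.61 (adjusted p = 0.0272). In CHOP-/- cells Nop10 fell by 0.37 (adjusted p = 0.0214). That call was lost on the values as deposited, with arrays centred on their medians and with only the groups compared in the fit. It was also lost without untreated array C or D or 8 h array A. The count of 4 called higher in CHOP-/- cells became 1 without 8 h array C. It became 2 without any of untreated arrays A, B and D or 8 h arrays A and D. Between genotypes at 8 h, 2 of the 8 probe sets (25%) were called lower in CHOP-/- cells. These were Fbl (-0.579, adjusted p = 0.0175) and Nop10 (-0.493, adjusted p = 0.00695). Over all, 3.8% were called in either direction in that comparison. The response difference at 8 h was called for none of the 8. In the RNA polymerase I list, 5 of 14 probe sets (35.71%) were called higher in wild type and 2 (14.29%) in CHOP-/- cells at 8 h. The shares called higher over all were 8.8% and 6.73%. The probe sets called higher included Polr1e (1.04, adjusted p = 0.00139, and 0.72, adjusted p = 0.026) and the Taf1d partner Taf1c (0.66, adjusted p = 0.00706, and 0.56, adjusted p = 0.0224). The 5 became 3 without untreated wild type array A or B or 8 h array B or C, and the 2 became 0 or 1 without untreated CHOP-/- array B or D or 8 h array A, C or D.

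No factor of nonsense-mediated decay or the exon junction complex was called lower in a comparison with untreated cells. In wild type cells at 8 h, 6 of 14 probe sets from 4 genes were called higher (42.86%, beside 8.8% over all): 3 of the translation termination factor Etf1 (0.50, 0.38 and 0.55, adjusted p = 0.00385, 0.0172 and 0.00219), Ncbp1 (0.46, adjusted p = 0.0187), Rnps1 (0.77, adjusted p = 0.021) and Pnrc2 (0.54, adjusted p = 0.0374). In CHOP-/- cells at 8 h limma called 0 of 14, with 3 called when the letter was a block, and the Etf1 values were 0.33, 0.29 and 0.35. The response difference was called for none of these probe sets. The 6 became 3 without untreated wild type array A or without 8 h array D.

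Kinases related to Clk1 and Clk4 included Clk2, which rose in wild type cells by 0.92 (adjusted p = 0.00922) at 4 h and 0.87 (adjusted p = 0.00291) at 8 h and had 0.52 (adjusted p = 0.0779) in CHOP-/- cells at 8 h. Its 4 h call was lost without wild type 4 h array A and with only the groups compared in the fit. Dyrk1a rose at 8 h in both genotypes on 92383_at, by 0.61 (adjusted p = 0.00777) and 0.86 (adjusted p = 0.000469), while its brighter probe set 104079_at gave 0.02 and 0.04. Of the 8 kinase probe sets tested, 2 (25%) were called higher at 8 h in wild type and 1 (12.5%) in CHOP-/- cells, beside 8.8% and 6.73% over all. The list's median change there was 0.09 and 0.15, and Clk3, Srpk1, Srpk2, Dyrk1b and Prpf4b were not called. Among 41 probe sets of SR proteins and other splicing regulators with poison exons, 3 were called higher and 1 lower in wild type cells at 8 h (7.32% and 2.44%), below the 8.8% and 6.31% over all. These were Srsf10 (0.63, adjusted p = 0.0212), Luc7l2 (0.55, adjusted p = 0.012) and Srsf2 (0.32, adjusted p = 0.042), with Srsf5 lower by 0.62 (-0.62, adjusted p = 0.0322). Srsf10 and Srsf2 each had a further probe set that was not called in wild type cells at 8 h. In CHOP-/- cells 1 was called higher, Srsf10 (0.60, adjusted p = 0.0302), and 1 lower, Hnrnpa2b1 (-0.52, adjusted p = 0.0191), 2.44% each beside 6.73% and 5.96% over all. With arrays centred on their medians neither genotype had a lower call in this list. Single arrays moved these small counts: the 3 became 1 without untreated wild type array B or 8 h array A, C or D, and the CHOP-/- call of Srsf10 was lost without untreated array D or 8 h array A, C or D.

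Stress transcripts that have been described as decay targets were called higher at both times: 7 of 16 probe sets at each time in wild type cells, and 6 (4 h) and 7 (8 h) in CHOP-/- cells, none lower. That is 43.75% at both times in wild type cells, beside 1.65% and 8.8% over all, and 37.5% and 43.75% in CHOP-/- cells, beside 0.985% and 6.73%. At 4 h the wild type count was 4 with arrays centred on their medians, and the CHOP-/- count 2 with only the groups compared in the fit. Atf4, the translationally induced stress factor, rose by 0.88 (adjusted p = 6.53e-07) in wild type and 1.05 (adjusted p = 7.62e-08) in CHOP-/- cells at 8 h. Gadd45a rose by 2.46 (adjusted p = 7.43e-08) and 2.64 (adjusted p = 3.88e-08), and the amino acid transporter subunit Slc3a2 by 0.998 (adjusted p = 1.59e-06) and 1.019 (adjusted p = 1.36e-06). Ddit3 itself is in the list and rose in wild type cells by 3.87 (adjusted p = 4.46e-08), with 0.44 (adjusted p = 0.479) in CHOP-/- cells. Most of these genes are also known targets of stress transcription factors.

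**Figure D4:**
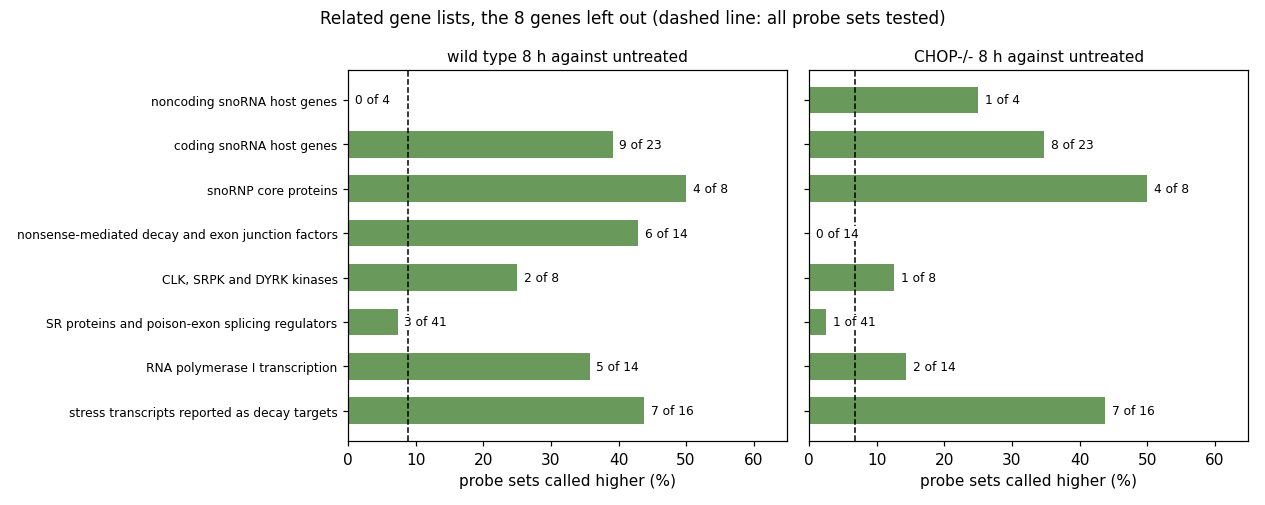
Percent of tested probe sets called higher (limma, adjusted p under 0.05) in each pathway list, for wild type and CHOP-/- cells at 8 h of tunicamycin, with the number called and tested beside each bar; dashed lines are the shares over all 7413 tested probe sets, 8.8% and 6.73%. Coding snoRNA hosts (39.13% and 34.78%) and stress transcripts (43.75% in both) are among the lists past the dashed lines in both genotypes, and the SR protein list (7.32% and 2.44%) is past neither.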

How the data were processed

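Expression was measured on 24 arrays, 4 in each of 6 groups. The deposited values are linear intensity signals, 1 per probe set and array. Their 2%-trimmed means lay between 250.1 and 250.2 on every array, so they had been scaled before deposit; the program that made them is not stated in the labels. Of 12422 probe sets without 66 controls, the platform annotation gave 10833 a single gene, 396 several and 1193 none, and 10817 of the former matched RefSeq.

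Signals were quantile normalized between arrays and transformed as log2(signal + 5.7), the 20th percentile of all signals. Probe sets with a mean above that of a signal of 28.7 (the 40th percentile) were kept, 7413 in all. A linear model of the 6 group means was fitted to each with limma 3.58.1 (R 4.3.3) and moderated with a trend, on 18 residual degrees of freedom. Tests were two-sided, with Benjamini-Hochberg adjustment within each contrast and a threshold of 0.05. Signals printed per array are as deposited. The fit was tested on simulated data with 200 changed probe sets. Lists and figures were made with Python 3.11.15.

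The 8 genes and the lists were chosen with earlier results of these data known. From each list up to 4 genes with the smallest adjusted p in wild type cells at 8 h were named, besides every called gene of the noncoding host, decay factor and kinase lists; for likeness the 3 highest correlations were named. Array letters shared between groups were checked as pairs by the correlation of deviations from group means. Every pair was above 0.1 for wild type cells at 4 h (0.311 to 0.554) and 8 h (0.398 to 0.612) against untreated cells and between genotypes at 8 h (0.276 to 0.54), and not in the other comparisons. Alternatives changed the pseudocount, scaling, filter, samples in the fit, block and each array in turn.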

Additional observations from a re-analysis of the deposited data

Results flagged for a closer look

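Among 72 groups of 4 arrays (12 probe sets in 6 groups), 4 had 1 array far from the other 3, where chance gives about 1 in 20. For Hnrnpdl 96083_s_at it was CHOP-/- 4 h array C, at 1655 (a gap of 0.845 of the group's range). For Rbm39 93267_at it was wild type 8 h array D, at 582.4 (0.896), and untreated CHOP-/- array B, at 336.3 (0.83). For the dim Rbm39 94689_at it was CHOP-/- 8 h array C, at 28.4 (0.834), all 4 arrays of that group being under the filter's signal of 28.7.

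The response to 8 h of tunicamycin differed between genotypes for Ddit3, the deleted gene, by -3.42 on the log2 scale (SE 0.496, limma adjusted p = 0.00356). None of the 12 probe sets of the 8 genes was among its calls.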

How the results depend on the processing

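For the 8 genes, none of 483 alternative values of changes called here turned sign. Of the changes from untreated cells not called here, 3 of 387 did, Taf1d 104640_f_at without CHOP-/- 4 h array B (-0.04) and Hnrnpdl 96084_at without array C or both 4 h arrays C (0.003), all for CHOP-/- cells at 4 h. So did 52 of 1254 uncalled genotype and response differences. In all, 2113 values moved by less than the spread within groups and 11 by more. Of the list counts, 1866 stayed within 1.5 times and 110 did not. The former include many counts that were 0 in every setting, such as those of the endothelial markers, which had no probe set tested. Their number is therefore no measure of how stable the other counts were. Where a count moved, the cause was not tested. The calls over all probe sets for CHOP-/- cells at 4 h, 102 here, were 65 on the values as deposited, 53 with arrays centred on their medians and 65 without a filter. The response difference at 8 h, 1 call here, had 0 with a pseudocount of 1, 2 on the values as deposited, 3 without a filter, 3 with every array of at least 1 group above the filter signal and 2 with 1 probe set per gene; at 4 h it had 1 with a pseudocount of 32. Without a filter 1 probe set of the 8 genes was called between untreated genotypes, and with 1 probe set per gene 0 were called in CHOP-/- cells at 4 h. With only the groups compared in the fit the calls were 82 for wild type cells at 4 h, 28 for CHOP-/- cells at 4 h, 24 between untreated genotypes and 56 between genotypes at 4 h. Without both 4 h arrays of letter C, an alternative chosen after seeing the data, 3 probe sets of the 8 genes were called in CHOP-/- cells at 4 h, and 88 of all between genotypes at 4 h.

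With the array letter as a replicate block, calls between genotypes at 4 h went from 145 to 239, with 1 probe set of the 8 genes, and the response difference at 8 h had 2. The wild type counts were 178 at 4 h and 1279 at 8 h, and those of CHOP-/- cells 135 and 1102. The block with only the groups compared, added after seeing the data, gave 1951 for wild type cells at 8 h and 767 between genotypes at 8 h.

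Leaving out 1 array at a time gave 78 to 123 calls for wild type cells at 4 h, 839 to 958 at 8 h, 61 to 89 for CHOP-/- cells at 4 h, 697 to 852 at 8 h, 39 to 51, 92 to 161 and 169 to 255 between genotypes untreated, at 4 h and at 8 h, and 0 and 1 to 2 for the response differences. The 8 genes had 3 to 5, 7 to 9, 1 to 3 and 9 to 11 probe sets called in the first 4 of these, 0 to 1 between genotypes at 4 h and 0 in the rest. Probe sets near a signal of 28.7 had no dependable level.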
